A study of Mus musculus with 8 samples.

Results

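The B7 family of costimulatory and checkpoint ligands was examined in macrophages sorted from mouse pancreas tumours. Its 8 genes, Cd80, Cd86, Cd274, Pdcd1lg2, Icosl, Cd276, Vtcn1 and Vsir, were chosen by name, as the probes other than controls whose gene name on the array is that of a member. They have 16 probes among the 56605 probes of the array, and are 8 of 36994 gene names. All 16 probes passed the filter on dim signals, and every one is described.

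B7 ligands are surface proteins that send a second signal to T cells beside the antigen receptor. Cd80 and Cd86 engage CD28, which activates, and CTLA-4, which inhibits, while Cd274 (PD-L1) and Pdcd1lg2 (PD-L2) engage the inhibitory receptor PD-1 and Icosl engages ICOS. Antigen-presenting cells, among them macrophages and dendritic cells, carry these ligands, and in tumours the PD-1 ligands are known as brakes on T cells.

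Expression was measured on 1-colour arrays in 4 MHCII-high and 4 MHCII-low samples, named after their MHC class II, which displays peptides to helper T cells. Both groups came from female mice of a strain spelled FvBn, 8 to 10 weeks old, that had been implanted with tumours. No genotype is given in the labels. The series as a whole is described as covering normal pancreas and tumours, in KPC, FLT3-CRE/LSL-YFP or wild-type mice, without saying to which of them these samples belong. Cells were sorted into lysis solution, and the sources used here name no gate besides MHCII. Each group holds the numbers 20435, 20436, 20439 and 20442 once. What the numbers mark, and whether the samples came from separate animals, is not given, so the p-values reflect the spread of these samples alone, and that spread may be technical.

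Between 38756 and 42120 probes were well above background per array (68.5% to 74.4%), and no spot was saturated. All 8 arrays lay on 1 slide, with 1 MHCII-high and 3 MHCII-low arrays in row 1 and 3 MHCII-high and 1 MHCII-low arrays in row 2. The macrophage label was checked with 12 markers, all of them well above background, whose mean log2 level was 4.18 to 4.56 on the MHCII-low arrays and 3.74 to 4.12 on the MHCII-high arrays. Of these 12 genes 0 were higher in MHCII-high and 1 was lower in limma (0 and 5 at an unadjusted p of 0.05), namely Adgre1, by a log2 difference of -1.69 (adjusted p = 0.00446). Over all genes tested, 10.6% were higher and 9.09% lower at that unadjusted p. Of 15 dendritic cell markers, 13 rose in MHCII-high and 0 fell (14 and 0 unadjusted), with a median log2 difference of 3.03 and a mean level of 0.38 to 1.61 against -2.0 to -1.33. Ciita, one of the 13, switches on MHC class II genes, so the sort itself bears on it. Xcr1 and Cd24a were the 2 that did not pass. Of 7 B cell markers, 1 was higher and 0 were lower in limma (3 and 0 unadjusted). They had a mean level of 0.64 to 0.997 in MHCII-high and -0.22 to 0.53 in MHCII-low, with a median log2 difference of 0.72. Epithelial markers had 1 of 6 higher in limma, Cdh1 (1.73, adjusted p = 0.0337), and 0 lower (2 and 0 unadjusted). The median log2 difference was -0.01 over the list. Their mean level was -1.09 to 0.85 in MHCII-high against -1.01 to -0.02 in MHCII-low. In limma 0 of 8 T and NK cell, 7 neutrophil, 7 fibroblast and 3 endothelial markers passed in either direction. At an unadjusted p of 0.05 these 4 lists had 0, 1, 0 and 0 higher and 1, 0, 1 and 0 lower. Their median log2 differences in the same order were -0.21, -0.33, -0.94 and -0.46. The fibroblast markers had a mean level of -2.18 to 0.84 in MHCII-high and -0.01 to 1.25 in MHCII-low. By their medians the dendritic cell and B cell lists moved the way Pdcd1lg2 and Cd80 did, and so did Cdh1. By its median the epithelial list did not. The marker lists were chosen with earlier results of these data known, and their part in the B7 results was not tested.

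The probe sequences that carry the main comparisons are shown first, as the deposited files hold them and with mm9 coordinates from those files, because several members were read by a single probe or by probes that differ. Probes are named by the position of their first base in the transcript, and all letters are lower case since no part is singled out. The first 2 are whole and the other 4 are cut to their first 30 bases.
Cd80 probe at 583 (chr16:38474174-38474233, plus strand): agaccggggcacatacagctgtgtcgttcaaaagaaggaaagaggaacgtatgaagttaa
Icosl probe at 363 (chr10:77534559-77534618, plus strand): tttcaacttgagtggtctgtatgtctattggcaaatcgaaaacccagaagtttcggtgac
Icosl probe at 2139, first 30 bases (probe at chr10:77541662-77541721, plus strand): aatgagtgtagagagaactacttaagtcct
Pdcd1lg2 probe at 1470, first 30 bases (probe at chr19:29545473-29545532, plus strand): ctggcagcctctgaagttctaattaactgg
Cd274 probe at 3416, first 30 bases (probe at chr19:29462363-29462422, plus strand): ttgatgagtctcatgttaatgtcttgtttg
Vsir probe at 4212, first 30 bases (probe at chr10:59834799-59834858, plus strand): gattccactctggggatctagctttgtctg
The probes lie in the transcripts of the named genes according to the files, and no exon or UTR annotation of mm9 was used here.

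Levels are log2 processed signals relative to the 75th percentile of the same array, and differences are MHCII-high minus MHCII-low on the log2 scale. The brightest of its probes stood for each gene. Levels of different probes are not compared, since probes differ in how they bind.

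Among the 8 genes, 2 were higher in MHCII-high cells, Pdcd1lg2 and Cd80, 0 were lower, and 6 did not pass the adjusted p of 0.05 in limma. Of all 28000 genes tested 4.92% passed, 2.68% higher and 2.25% lower. At an unadjusted p of 0.05, 3 members were higher and 1 lower, where 10.6% of all genes were higher and 9.09% lower. The groups did not overlap for 4 members, against 14.4% of all genes (7.47% higher and 6.95% lower), with Cd80, Pdcd1lg2 and Icosl higher in all 4 MHCII-high arrays and Vsir lower. The median log2 difference was 0.27 over the members and 0.0021 over all genes tested. When every probe was tested, 4 of 16 were higher and 1 was lower, against 5.19% of all probes in either direction (2.77% higher and 2.43% lower). In these bulk samples, more cells of a type and more RNA per cell cannot be told apart.

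**Figure D1:**
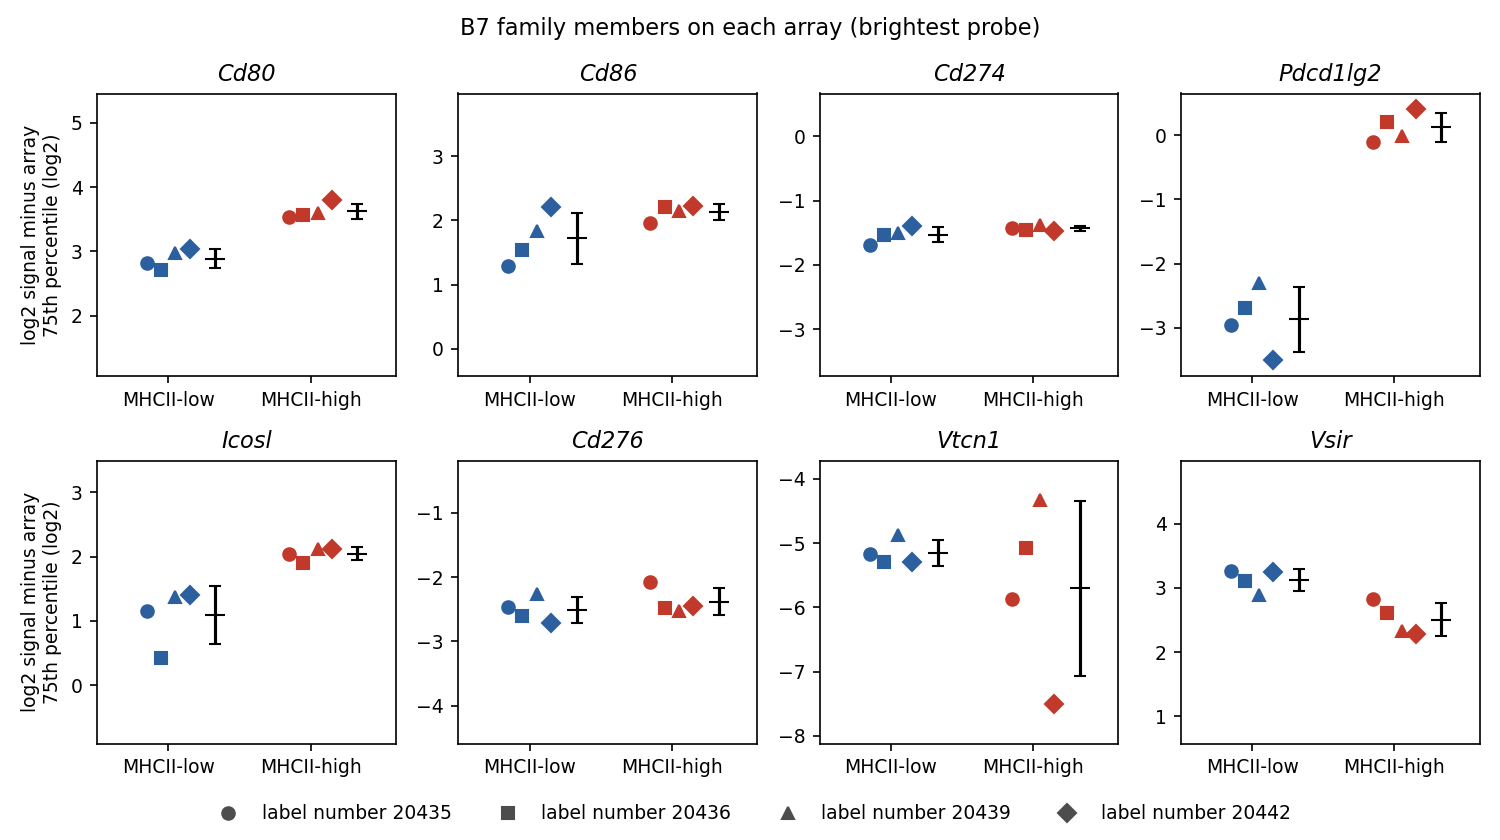
Log2 level of the brightest probe of each B7 gene on every array, relative to the 75th percentile of the array, with 4 MHCII-high and 4 MHCII-low samples and the group mean as a bar. Pdcd1lg2 stands between -0.11 and 0.40 in MHCII-high and between -3.51 and -2.30 in MHCII-low, while Cd274 overlaps between the groups.

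Of the ligands of CD28 and CTLA-4, Cd80 rose 1.67-fold in MHCII-high cells (95% interval 1.33 to 2.08, adjusted p = 0.0239 in limma), and Cd86 did not pass. On the brightest Cd80 probe, at 583, the MHCII-high level in the samples numbered 20435, 20436, 20439 and 20442 was 3.54, 3.56, 3.59 and 3.80. The MHCII-low level in the same order was 2.82, 2.71, 2.97 and 3.04. Every MHCII-high array was above every MHCII-low array, with means of 3.62 ± 0.12 (SD, n = 4) and 2.89 ± 0.15 (SD, n = 4) and a log2 difference of 0.74 (95% interval 0.42 to 1.05). Between samples of the same number the difference was 0.62 to 0.85.

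The further Cd80 probes gave differences of unequal size. The probe at 872 read 2.27, 2.58, 2.52 and 2.66 in MHCII-high and 1.54, 2.18, 1.31 and 1.48 in MHCII-low. The groups did not overlap, and the difference of 0.88 just missed the threshold (adjusted p = 0.0527 over all probes in limma). The probe at 2338, which the files assign to a predicted transcript variant of Cd80, read 0.35, 0.76, 0.51 and 0.75 in MHCII-high and -0.67, -0.86, -0.34 and -0.52 in MHCII-low. This probe gave the largest Cd80 difference, 1.19 or 2.29-fold (95% interval 1.74 to 3.01, adjusted p = 0.00932), and it passed in each of the 8 fits without 1 array (adjusted p 0.014 to 0.0343). The probe at 1457 read -1.04, -1.0, -0.44 and -0.26 against -1.24, -1.15, -0.78 and -1.28. Its groups overlapped, with a difference of 0.43 (adjusted p = 0.335).

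The Cd80 call of the gene fit rested on all but 2 of the arrays. It was lost without MHCII-low 20435 (adjusted p = 0.075), 20436 (0.0547) or 20439 (0.054), and without MHCII-high 20436 (0.0533), 20439 (0.0734) or 20442 (0.0546), while the log2 difference stayed between 0.68 and 0.79. In a fit with slide row as a block the difference was 0.66 (adjusted p = 0.103), and it was 0.72 within row 1 and 0.61 within row 2. The probe at 2338 kept its call with that block (1.23, adjusted p = 0.0395). With the label number as a block the limma gene fit of Cd80 gave 0.74 and did not pass (adjusted p = 0.0697).

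Cd86 was measured by 4 probes, and the groups overlapped on all of them. On its brightest probe, at 815, MHCII-high cells read 1.96, 2.21, 2.15 and 2.23 in the samples numbered 20435, 20436, 20439 and 20442, and MHCII-low cells read 1.29, 1.53, 1.84 and 2.21. MHCII-low 20442 reached the MHCII-high range while the other 3 MHCII-low arrays lay below it. The means were 2.14 ± 0.12 (SD, n = 4) and 1.72 ± 0.40 (SD, n = 4), and the difference of 0.42 did not pass (95% interval -0.06 to 0.89, adjusted p = 0.322). The probes at 915, 1928 and 2473 gave 0.63, 0.13 and 0.37 (adjusted p = 0.337, 0.797 and 0.353 over all probes in limma). The probe at 915 is assigned to a different transcript from the other Cd86 probes, so its position is not on their scale. Within slide rows 1 and 2 the difference of the brightest probe was 0.65 and -0.10.

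Whether Cd80 and Cd86 changed unequally was tested on the log2 value of Cd80 minus that of Cd86 on each array. This contrast moved by 0.32 between the groups (interval -0.18 to 0.75), and an exact permutation test gave p = 0.0857 (two-sided, 70 assignments of 8 arrays to groups of 4, p = 0.0857 adjusted over the 2 pairs compared). The smallest p that this test can give is 0.0286. Without MHCII-low 20435 the shift was 0.44 and its adjusted exact permutation p = 0.0286, while within slide rows 1 and 2 it was 0.07 and 0.71. An unequal change of this pair was therefore not shown, and a shift of up to 0.75 lies within the interval.

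**Figure D2:**
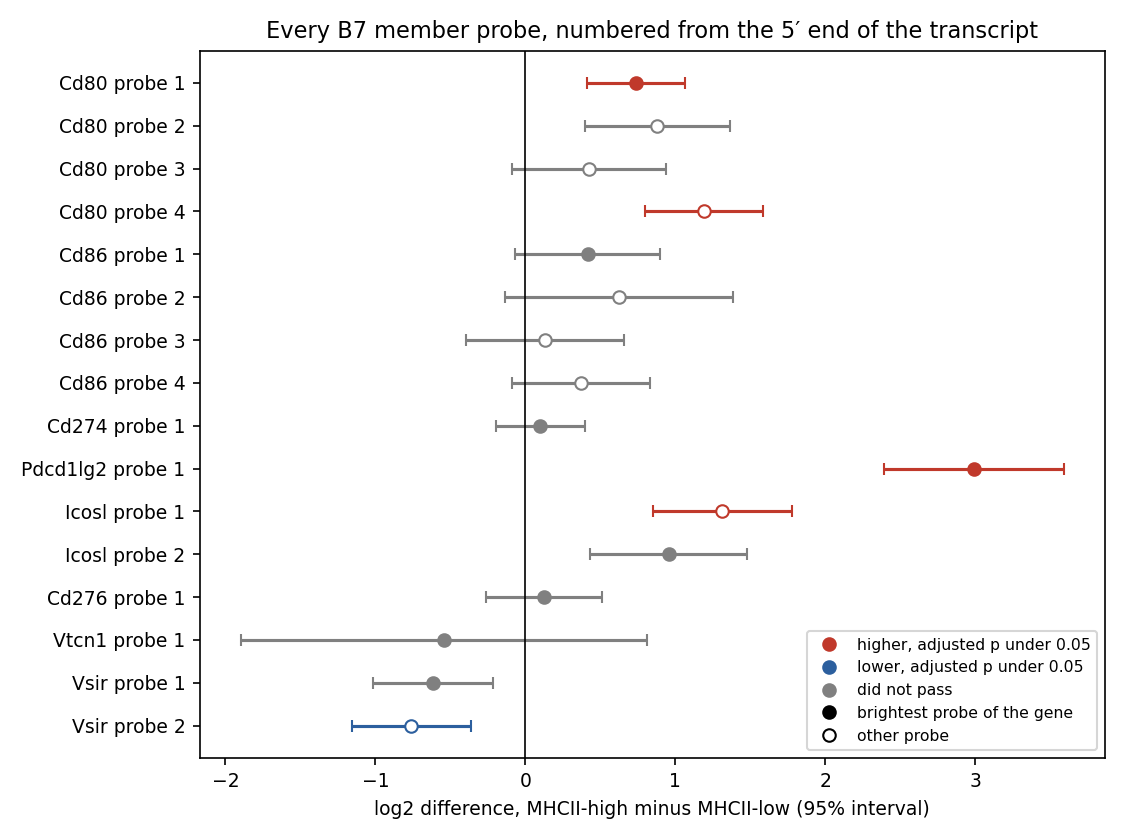
Log2 difference between MHCII-high and MHCII-low (x axis) with its 95% interval for each of the 16 probes of the B7 genes. Probes are labelled by gene and numbered within the gene in order of their start position. Only the Pdcd1lg2 probe lies beyond 2, at 2.99, and both Vsir probes lie below 0.

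Of the PD-1 ligands, Pdcd1lg2 (PD-L2) rose 7.94-fold in MHCII-high cells, and Cd274 (PD-L1), its neighbour on chromosome 19, did not pass. Pdcd1lg2 read -0.11, 0.20, -0.01 and 0.40 in the MHCII-high samples numbered 20435, 20436, 20439 and 20442, and -2.96, -2.70, -2.30 and -3.51 in the MHCII-low samples. The lowest MHCII-high array was above the highest MHCII-low array by more than the range of either group. Means were 0.12 ± 0.23 (SD, n = 4) and -2.87 ± 0.51 (SD, n = 4), with a log2 difference of 2.99 (95% interval 2.39 to 3.58, adjusted p = 0.00124 in limma) and a fold interval of 5.26 to 12.0. Its probe was well above background on all 8 arrays.

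By p-value Pdcd1lg2 was in place 42 of the 28000 genes tested, and by log2 increase in place 140, or 110 among the 749 genes called higher. Between samples of the same number the difference was 2.29 to 3.91. It was 2.78 to 3.18 in the fits without 1 array (adjusted p 0.00192 to 0.00664), 3.23 with a block for slide row, 2.85 inside row 1 and 3.60 inside row 2. Dendritic cells are known to carry PD-L2 too. Of 15 dendritic cell markers, 13 were higher, 0 were lower and 2 did not pass. Their part in the Pdcd1lg2 result was not tested.

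For Cd274 the groups differed by less than the error. It read -1.42, -1.46, -1.38 and -1.47 in the MHCII-high samples and -1.69, -1.54, -1.5 and -1.40 in the MHCII-low samples. MHCII-low 20442 was within the MHCII-high range and the other 3 MHCII-low arrays were slightly below it. The log2 difference was 0.10 (95% interval -0.19 to 0.39, adjusted p = 0.715), so a change beyond 0.39 lies outside the interval of this probe. A single probe read each PD-1 ligand, and the Cd274 probe starts at base 3416 of its transcript.

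The contrast of Pdcd1lg2 and Cd274 on each array was 1.31, 1.66, 1.37 and 1.88 in MHCII-high and -1.27, -1.16, -0.80 and -2.11 in MHCII-low. Its absolute level has no meaning across probes, but its shift between the groups does, and the groups lay far apart. The shift was 2.89 on the log2 scale (interval 2.12 to 3.98), a ratio of 7.41 between the fold changes. The exact permutation test gave p = 0.0286 (two-sided), the smallest it can give, and 0.0572 adjusted over the 2 pairs, so the unequal change did not pass after adjustment. The adjusted value could pass only if the other pair reached the same p. That happened without MHCII-low 20435 (shift 2.91, adjusted exact permutation p = 0.0286). Within slide rows 1 and 2 the shift was 2.74 and 3.63.

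**Figure D3:**
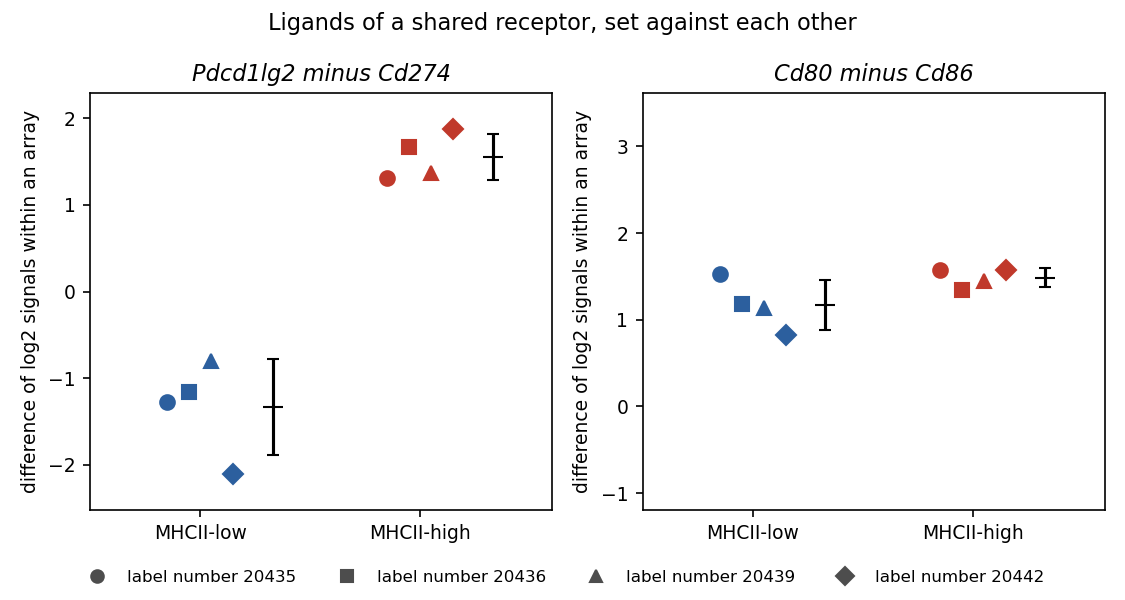
Log2 value of one ligand minus that of its partner on each array, for Pdcd1lg2 minus Cd274 and Cd80 minus Cd86, in MHCII-high and MHCII-low samples. The vertical axes cover the same span, and only shifts between the groups can be read. The Pdcd1lg2 contrast shifted by 2.89 and the Cd80 contrast by 0.32.

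The genes beside this pair were read in the RefSeq order of GRCm38.p6. Plgrkt, a plasminogen receptor gene on the Cd274 side, had a log2 difference of 0.10 (adjusted p = 0.771). On the Pdcd1lg2 side Ric1 had -0.42 (adjusted p = 0.149) and Ermp1 -0.32 (adjusted p = 0.398). Rln1, the next gene beyond Plgrkt, was under the filter. Pdcd1lg2 was thus the 1 gene of the 5 tested in this stretch that passed.

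The upstream sequences of the pair are shown because Pdcd1lg2 passed and its neighbour Cd274 did not, although the test of their difference missed the threshold after adjustment. Each covers the 250 bases before the transcription start in RefSeq, GRCm38.p6, plus strand. Capitals mark matches to the motifs searched.
Pdcd1lg2 (chr19:29410669-29410918): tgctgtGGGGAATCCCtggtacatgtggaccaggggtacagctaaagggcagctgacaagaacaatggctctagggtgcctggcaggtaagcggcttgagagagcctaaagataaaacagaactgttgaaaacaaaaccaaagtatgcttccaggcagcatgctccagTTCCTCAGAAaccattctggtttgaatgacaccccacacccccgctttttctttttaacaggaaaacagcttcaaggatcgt
Cd274 (chr19:29367188-29367437): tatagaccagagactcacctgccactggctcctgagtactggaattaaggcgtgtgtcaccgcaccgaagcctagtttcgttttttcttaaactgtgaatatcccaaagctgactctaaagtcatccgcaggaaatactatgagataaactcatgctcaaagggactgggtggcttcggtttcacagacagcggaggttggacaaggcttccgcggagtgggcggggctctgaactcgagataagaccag
Motifs of 4 kinds were searched on both strands, from 250 bases before to 50 after the start: a STAT6 type of TTC and GAA with 4 bases between, an IRF type of a repeated GAAA with 2 bases between, an AP-1 type (TGANTCA) and an NF-kB type. The Pdcd1lg2 sequence held an NF-kB type match whose first base lies 244 bases before the start and a STAT6 type match 82 bases before it, and the Cd274 sequence held 0 matches. Of 32851 promoters in the table, 8.46% held the NF-kB type, 6.95% the STAT6 type, 7.81% the AP-1 type and 3.44% the IRF type. Among the 7 members with a promoter in the table, Icosl held an NF-kB type match 111 bases before its start, Cd80 an AP-1 type match 42 bases before, and Vtcn1 an AP-1 type match after its start, while Cd276 and Vsir held 0. No matches overlapped. A match describes letters in a window and is not a binding site, and a window without a match says nothing of the factor.

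Icosl, the ligand of the T cell receptor ICOS, did not pass in the gene fit, though its groups did not overlap on either probe. On the brightest probe, at 2139, MHCII-high cells read 2.04, 1.90, 2.12 and 2.12 in the samples numbered 20435, 20436, 20439 and 20442, and MHCII-low cells 1.15, 0.43, 1.37 and 1.40. MHCII-low 20436 was the lowest of its group. The difference was 0.96 (95% interval 0.44 to 1.48, adjusted p = 0.0515 in limma), from 2.05 ± 0.10 (SD, n = 4) against 1.09 ± 0.45 (SD, n = 4).

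The Icosl probe at 363 passed. It read 0.81, 0.30, 0.74 and 0.84 in MHCII-high and -0.34, -0.98, -0.43 and -0.79 in MHCII-low. All MHCII-high arrays were above 0 and all MHCII-low arrays below it, with a difference of 1.31 or 2.48-fold (95% interval 1.80 to 3.43, adjusted p = 0.0118 over all probes). It passed in all 8 fits without 1 array (adjusted p 0.0143 to 0.0432) and missed the threshold with a block for slide row (1.24, adjusted p = 0.0573). The mean of both probes passed (1.13, adjusted p = 0.0169), and so did the gene fit without MHCII-low 20436 (0.74, adjusted p = 0.0438). The gene fit did not pass without any other single array (adjusted p 0.0662 to 0.135). It also missed the threshold with a block for slide row (0.81, adjusted p = 0.181) or for label number (0.96, adjusted p = 0.0719). The brightest probe differed by 0.92 and 0.70 within rows 1 and 2.

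Cd276 (B7-H3), whose receptor is not settled, did not pass. It read -2.07, -2.48, -2.53 and -2.45 in MHCII-high and -2.46, -2.61, -2.26 and -2.71 in MHCII-low, overlapping in most of its range. The difference was 0.12 (95% interval -0.26 to 0.51, adjusted p = 0.731). Within slide rows 1 and 2 it was -0.04 and 0.36.

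Vtcn1 (B7-H4), an inhibitor of T cells best known from epithelial tumours, was close to the background. It read -5.87, -5.08, -4.33 and -7.51 in MHCII-high and -5.17, -5.29, -4.87 and -5.30 in MHCII-low. Of the 4 arrays of each group, 2 MHCII-high and 3 MHCII-low read it well above background, and the lowest signals well above background were -5.56 to -5.28 per array. The difference of -0.54 did not pass (95% interval -1.89 to 0.81, adjusted p = 0.663), and without MHCII-high 20442, the dimmest array, it was 0.06 (adjusted p = 0.952). A difference was not detectable at this signal.

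Vsir (VISTA), a ligand that inhibits T cells and is abundant on myeloid cells, read lower in MHCII-high without overlap on both of its probes, of which 1 passed. On the brightest probe, at 1393, MHCII-high cells read 2.82, 2.60, 2.32 and 2.28 and MHCII-low cells 3.26, 3.10, 2.89 and 3.25. The highest MHCII-high array, 20435, came close to the lowest MHCII-low array, 20439. The difference of -0.62 did not pass (95% interval -1.01 to -0.22, adjusted p = 0.0845 in limma), from 2.51 ± 0.25 (SD, n = 4) against 3.12 ± 0.17 (SD, n = 4).

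The Vsir probe at 4212 read 0.83, 0.72, 0.40 and 0.32 in MHCII-high and 1.53, 1.30, 1.11 and 1.36 in MHCII-low, again without overlap. On the log2 scale its level fell by 0.76 (adjusted p = 0.0441 over all probes). This call held in 1 of the 8 fits without 1 array, the one without MHCII-high 20435 (adjusted p = 0.0452), and was lost in the other 7 (0.0667 to 0.126) and in the fit with a block for slide row (-0.72, adjusted p = 0.145). Within rows 1 and 2 it differed by -0.60 and -0.85, and the brightest probe by -0.48 and -0.77.

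The genes most like the 2 members that rose were found over the 8 arrays by the root mean square difference of centred log2 values, among 19644 genes with a RefSeq symbol. Among the nearest to Pdcd1lg2 were Olfr324 (0.20), an olfactory receptor gene, and Htr7 (0.21), a serotonin receptor gene. Their log2 differences between the groups were 2.90 and 2.92. Nearest to Cd80 were Macroh2a1 (0.08), a histone variant gene, Ccdc134 (0.09) and Mlec (0.09), a lectin gene of the endoplasmic reticulum, with differences of 0.69, 0.63 and 0.63. Likeness over 8 arrays of 2 groups is a description of shape and carries no test.

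The receptors of the B7 ligands did not pass. Of 8 listed, 7 were tested and Igsf11 was under the filter. In limma 0 were higher and 0 lower (2 and 1 at an unadjusted p of 0.05), with a median of 0.21. Of all genes tested 2.68% were higher and 2.25% lower, and 10.6% and 9.09% at that unadjusted p. Pdcd1, which encodes PD-1, had a log2 difference of 1.1 (adjusted p = 0.124), from -2.0 ± 0.40 (SD, n = 4) against -3.10 ± 0.68 (SD, n = 4). Cd28 was at 0.21 (adjusted p = 0.826) and Ctla4 at 0.33 (adjusted p = 0.551).

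Among 16 further costimulatory and coinhibitory ligands, 13 were tested, 0 rose and 1 fell, with 3 and 3 at an unadjusted p of 0.05. Their median was 0.19. The shares of all genes were 2.68% and 2.25%, and 10.6% and 9.09% unadjusted. On the log2 scale Ceacam1, an adhesion protein that binds TIM-3 and itself, fell by 1.38 (adjusted p = 0.0296), from 2.17 ± 0.23 (SD, n = 4) in MHCII-low to 0.79 ± 0.56 (SD, n = 4) in MHCII-high. Its other probe fell by 1.48 (adjusted p = 0.0138). The Ceacam1 call held without MHCII-high 20435 (adjusted p = 0.0287) or 20436 (0.034), was lost without any of the other 6 arrays (0.0606 to 0.0882), and did not survive a block for slide row (-1.17, adjusted p = 0.117, and -0.97 and -1.37 within the rows). Cd40, the receptor through which helper T cells license antigen-presenting cells, was at 0.28 (adjusted p = 0.382), and Cd83, a maturation marker of dendritic cells, at 0.54 (adjusted p = 0.116). On none of the arrays were Tnfsf4, Tnfsf18 or Cd70 well above background.

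Of 24 genes known to regulate B7 ligand expression, 23 were tested, 4 rose and 0 fell, with 7 and 1 at an unadjusted p of 0.05 and a median of 0.14. Over all genes 2.68% rose and 2.25% fell, and 10.6% were higher and 9.09% lower unadjusted. Irf4, a transcription factor of activated lymphocytes and dendritic cells, rose 5.43-fold (95% interval 3.32 to 8.89, adjusted p = 0.00562), from -1.39 ± 0.65 (SD, n = 4) to 1.05 ± 0.21 (SD, n = 4). Its other probe rose 4.83-fold (adjusted p = 0.00407). Jak2, a kinase of cytokine receptors that include the interferon gamma receptor, rose 3.65-fold (2.83 to 4.71, adjusted p = 0.00123). Its level went from -1.32 ± 0.16 (SD, n = 4) to 0.55 ± 0.21 (SD, n = 4). The other Jak2 probe rose 20.2-fold (adjusted p = 0.00131). Both genes passed in all 8 fits without 1 array and in the fit with a block for slide row. With that block the log2 difference was 2.83 for Irf4 and 1.89 for Jak2. Within rows 1 and 2 it was 2.4 and 3.27 for Irf4 and 1.74 and 2.04 for Jak2.

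Nfkb1, an NF-kB subunit, rose by 0.65 (adjusted p = 0.0277), while its other 2 probes, at 1.38 and 0.55, did not pass. Myd88, the adaptor of Toll-like receptors, rose by 0.66 (adjusted p = 0.0452). Nfkb1 kept its call without MHCII-low 20442 (0.047) and lost it without any of the other 7 arrays (0.0564 to 0.0782), and Myd88 kept it without MHCII-high 20442 (0.0339) and lost it without the others (0.086 to 0.131). With a block for slide row neither passed (0.108 and 0.123). Irf1, which mediates the induction of Cd274 by interferon gamma, had a difference of -0.03 (adjusted p = 0.943). Stat6, through which interleukin 4 induces Pdcd1lg2, was at -0.33 (adjusted p = 0.251).

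The butyrophilin relatives of the B7 family, 9 of 10 tested, had 0 higher and 0 lower in limma and a median of 0.35. At an unadjusted p of 0.05 the counts were 1 and 1, beside 10.6% and 9.09% of all genes. Btn2a2, a butyrophilin that inhibits T cells, was at -2.35 (adjusted p = 0.213), and 2 of the 4 MHCII-high arrays read it well above background. Over the 4 lists together 4 of 52 tested genes were higher (7.69%, beside 2.68% of all genes) and 1 was lower (1.92%, beside 2.25%). The groups did not overlap for 15 (28.8%, beside 14.4% of all genes), 11 of them higher and 4 lower. Their median was 0.20, beside 0.0021 over all genes tested.

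**Figure D4:**
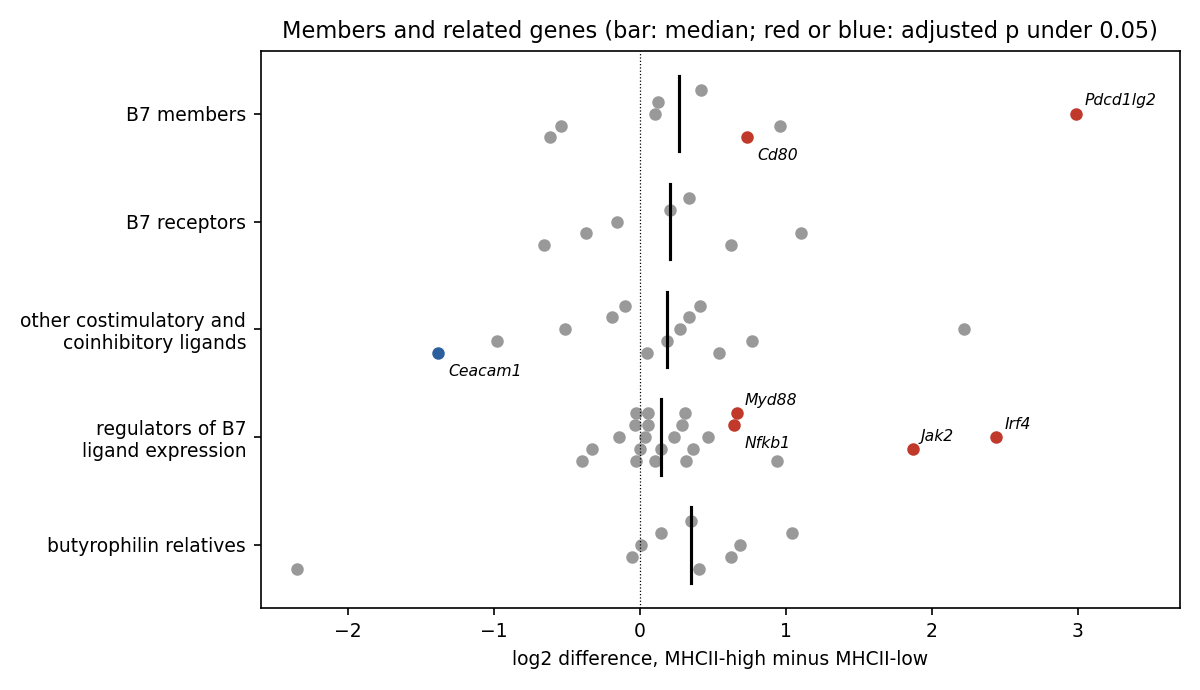
Log2 difference between MHCII-high and MHCII-low (x axis) for the 8 B7 genes and for the tested genes of the 4 related lists, 1 point a gene, with the list median as a bar. Genes with an adjusted p under 0.05 are coloured and named, and Pdcd1lg2, Irf4 and Jak2 lie farthest to the right among them.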

How the data were processed

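RNA of 8 sorted samples underwent Sigma WTA2 amplification and Cy5 labelling, per the labels' protocols. The deposited scanner files give linear spot intensity, as a background-subtracted processed signal per the file headers. Agilent Feature Extraction 11.5.1.1 made them, according to the submitters' processing notes. The authors' deposited series table holds log2 values. No source used here states how it was made, but its columns, with medians of 9.38137 to 9.38149, matched a quantile normalization of the processed signals computed here (r of 0.999998 or higher across probes), so its scale and direction were those of the log2 signal, with no centring of genes. It served as an alternative.

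Controls (3671 of 62976 spots) and outlier spots were left out, spots of a probe were averaged, and log2 signals were taken relative to the 75th percentile of the array. The filter kept 41184 probes that were well above background on 4 or more of the 8 arrays, with the brightest probe per gene, giving 28000 genes. The number of arrays limits the precision. Names came from the files and from the RefSeq table of GRCm38.p6. Of 56605 probes, 43849 had a RefSeq name and 12756 kept the name in the files.

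Groups were compared with limma 3.58.1 in R 4.3.3, without covariates, two-sided and with Benjamini-Hochberg adjustment over all genes or all probes, and the fit was tested on simulated data. The 2 ligand pairs were compared with exact permutation tests over arrays, with intervals of the shifts that the test did not reject. Named genes were all members with every probe, every gene of 4 related lists (receptors, other ligands, regulators, butyrophilins) that passed, up to 3 well-known others per list, the 3 most alike genes of each member that passed, and the neighbours of the PD-1 ligand pair. Genes of the marker lists were named where they passed or where a count needed it. A few genes and 1 motif that these rules name are not reported here. The members and lists were chosen with earlier results of these data known. Alternatives were normexp background correction with an offset of 50, quantile normalization, the deposited table, 2 other filters, the mean of a gene's probes, the label number or the slide row as a block, values within rows, and leaving out each array.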

Additional observations from a re-analysis of the deposited data

How the results depend on the processing

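Pdcd1lg2 kept its call in every alternative that was tested, with log2 differences of 2.34 (normexp) to 3.23 (slide row as a block) and adjusted p of 5.22e-05 to 0.0165. Of the 8 members, 2 were higher in the reported fit. With the label number as a replicate block 1 was, and with a block for slide row 1 was, since Cd80 no longer passed (adjusted p = 0.0697 and 0.103). Normexp, quantile normalization, the deposited table, the filter on all 8 arrays and the mean of the probes gave 3, as Icosl passed (adjusted p 0.0169 to 0.0457). Without 1 array the count was 1 to 2 higher and 0 to 0 lower. Over every member probe, 3 to 5 were higher and 0 to 1 lower without 1 array. The replicate block gave 0 lower, and the row block 2 higher and 0 lower. Among related genes the count higher was 4 in the reported fit, 6 with the mean of the probes and 3 with no filter on dim probes. It was 2 with the replicate block, 2 with the row block and 2 to 3 without 1 array. The count lower was 2 with normexp, 2 with the filter on all 8 arrays, 0 with the row block and 0 to 1 without 1 array. Over all genes, 1379 passed, 802 with the replicate block, 455 with the row block and 546 to 1157 without 1 array. The shift of Pdcd1lg2 against Cd274 was 2.63 to 3.07 without 1 array and 3.63 within row 2. That of Cd80 against Cd86 was 0.21 to 0.44 without 1 array, 0.069 within row 1 and 0.71 within row 2. Vtcn1 ran from -0.996 without MHCII-high 20439 to 0.063 without MHCII-high 20442, in the gene and the probe fit. The cause of these changes was not tested.

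The label numbers were checked as pairs. Deviations from the group means correlated at 0.19, 0.13, 0.21 and 0.08 between samples of the same number, 1 of them under 0.1. The reported fit did not take the numbers as pairs, but these values do not settle that the samples are unpaired. Every sample correlated best with its own number, and each number occurs once per group, so the samples may be paired. In the limma fit with the number as a replicate block Pdcd1lg2 passed (adjusted p = 0.0165) and Cd80 did not (adjusted p = 0.0697). Under the replicate block the exact permutation test of the ligand pairs has 16 assignments and cannot go below p = 0.125, so it says nothing of either pair.

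Each slide row held a single array of one group, so values within a row have no spread of their own. Pdcd1lg2, Cd274, Cd276 and Vtcn1 were read by 1 probe each, and Vtcn1 lay near background, which limits what its difference can show.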
